A study of Mus musculus with 12 samples.

Results

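The 10 genes described here, *Gdf5*, *Gdf6*, *Osr1*, *Osr2*, *Barx1*, *Erg*, *Cux1*, *Dcx*, *Sulf1* and *Prg4*, are genes of the forming joint and of articular cartilage. They were taken by gene symbol from the 36186 rows of the deposited expression table, and each had 1 row. RNA-Seq was run on 12 libraries of chondrocytes cut from the E15.5 mouse forelimb zeugopod (the radius and ulna segment) by laser capture microdissection (LCM), all on a mixed 129/CD-1 background. There were 3 libraries each of wild type (WT) resting, WT proliferative and WT hypertrophic chondrocytes and 3 of the *aadd* mutant, which is homozygous for first-exon frameshifts, made by LoxP insertion with a small deletion, in *Hoxa9*, *Hoxa10*, *Hoxa11*, *Hoxd9*, *Hoxd10* and *Hoxd11*. In the labels the hypertrophic group appears as hyperproliferative and *aadd* as resting, but no zones were separated in the mutant and its captures took in the chondrocytes of the element as a whole. The captured cells included some perichondrium, so a comparison of *aadd* with WT resting sets a whole element against 1 zone of another.

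A synovial joint starts as an interzone, a band of flattened cells that stop making cartilage matrix where a continuous cartilage rod will be divided. GDF5 and GDF6, ligands of the BMP family, mark these cells and act through BMP receptors, of which BMPR1B is the main one for GDF5. Descendants of the interzone form articular cartilage, whose surface cells secrete lubricin, while the neighbouring chondrocytes of the growing element proliferate, enlarge and are replaced by bone.

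Values are NRPKM, reads scaled to transcript length and library size with a further normalization between libraries by the authors. By the most frequent low values, 1 read on 1 kb was worth 0.309 to 0.530 NRPKM. Read as plain RPKM, that would put the libraries at 1890000 to 3240000 reads. The further normalization may have shifted these depths, so they are nominal. All 10 genes passed a filter of at least 5 NRPKM in at least 3 of 12 libraries, as did 10936 genes in all, but *Gdf6* passed through its 3 *aadd* libraries alone and *Prg4* had just 3 libraries at that level. In WT, *Barx1* reached that level only in resting replicates 2 and 3 (5.51 and 10.9 NRPKM), so it too needed its *aadd* libraries to pass. A gene is said to have risen or fallen where limma gave an unadjusted *P* up to 0.05 with a fold change of at least 2 between WT compartments or 1.5 between *aadd* and WT, and the Benjamini-Hochberg adjusted *P* is given beside it. Fold changes are on the log2(NRPKM + 0.1) scale. The sum of 10 cartilage markers was 2364 to 4494 NRPKM in all libraries but WT hypertrophic replicates 2 and 3. It was 2364 to 2791 in *aadd* and 2543 to 3559 in WT resting libraries, and 0 of the 10 had a higher mean in *aadd*. Hypertrophic markers, 10 in all, summed to between 74.7 and 112 in WT resting libraries and between 49.1 and 82.1 in *aadd* libraries. *Gdf5*, *Osr1*, *Osr2*, *Erg*, *Cux1*, *Dcx* and *Sulf1* had been singled out from these same libraries in the published account. The direction of these genes is no independent evidence.

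Against WT resting, 6 of the 10 joint genes rose in *aadd* and none fell, where 3.78% of all genes tested rose and 2.78% fell. Without *Gdf6*, which entered the test through its *aadd* libraries alone, the count was 5 of 9. These 5 still include *Barx1*, which also passed the filter only with its *aadd* libraries. The rest of the 5, *Gdf5*, *Osr1*, *Dcx* and *Sulf1*, had been named as raised in the published account from these same libraries. Neither count is therefore independent evidence of a rise. Those that rose were both ligands (*Gdf5* and *Gdf6*), the transcription factors *Osr1* and *Barx1*, the microtubule protein gene *Dcx* and the sulfatase gene *Sulf1*. *Osr2*, *Erg*, *Cux1* and *Prg4* did not pass. None of the 10 had an adjusted *P* under 0.05, a level reached by 0.119% of the genes tested. The median log2 difference of the 10 was 1.35 (1.27 without *Gdf6*), beside 0.01 over all genes. Between WT compartments, 7 of the 10 were lower in proliferative than in resting cells and none higher, where 2.97% of all genes tested were lower and 2.56% higher. None of the 7 had an adjusted *P* under 0.05 (0.622% of all genes). Both comparisons use the same 3 WT resting libraries. In bulk samples such as these, fewer cells of a type and less RNA per cell cannot be told apart.

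**Figure D1:**
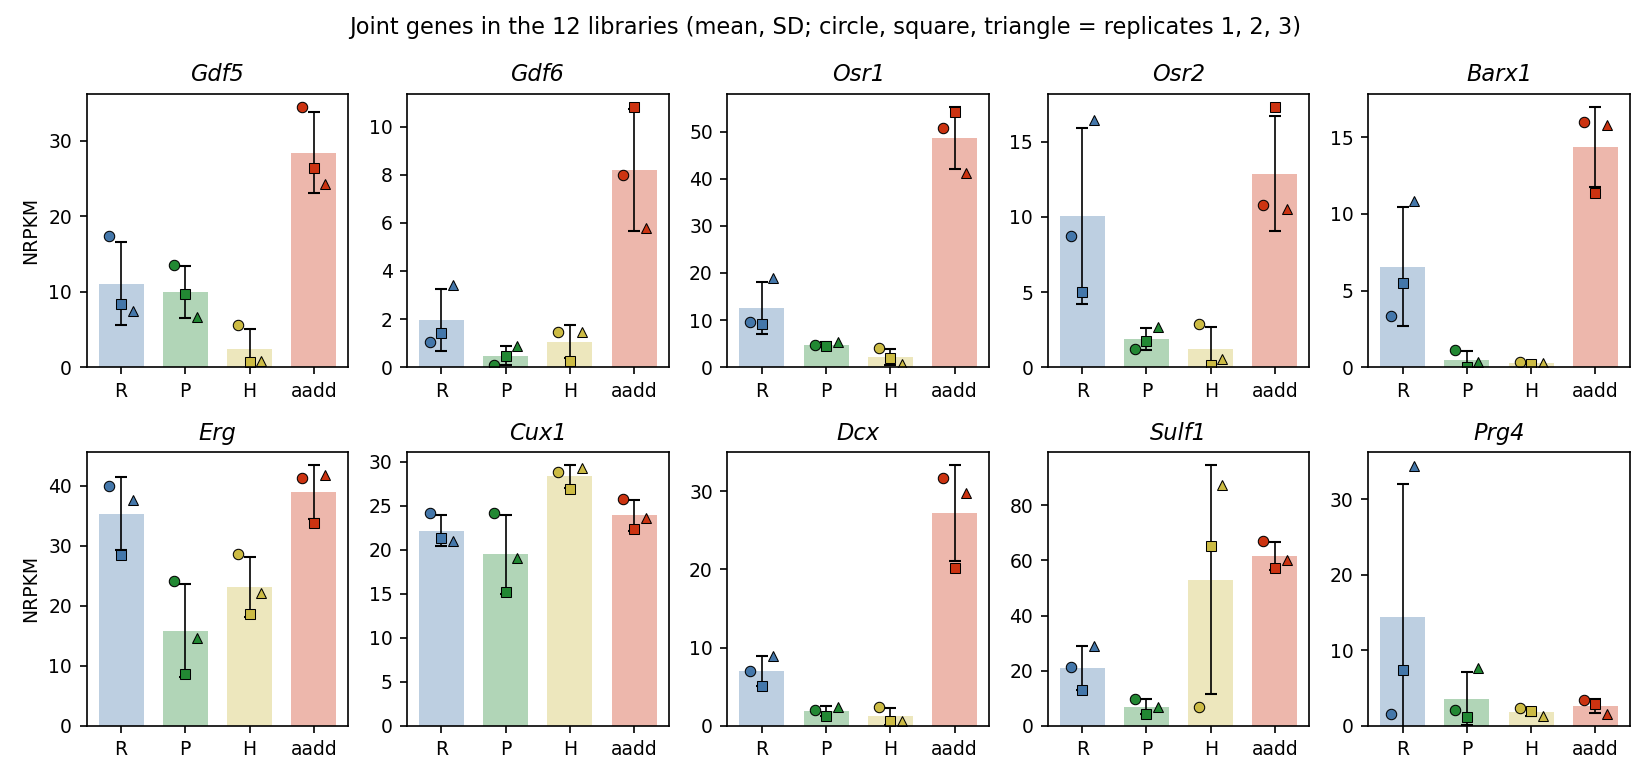
NRPKM of the 10 joint genes in WT resting (R), proliferative (P) and hypertrophic (H) cells and in *aadd*, with bars at the mean, error lines of 1 SD (n = 3, drawn only above 0) and a symbol for each replicate. All 3 *aadd* libraries lay above all 9 WT libraries for *Gdf5*, *Gdf6*, *Osr1*, *Dcx* and *Barx1*, *Sulf1* was high in *aadd* and in hypertrophic replicates 2 and 3, and *Prg4* was highest in 1 resting library.

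For 5 of the 10 genes, *Gdf5*, *Gdf6*, *Osr1*, *Dcx* and *Barx1*, every *aadd* library was above every WT library, which was so for 308 of the 10936 genes tested (2.82%). The filter itself fixed this for *Gdf6*, and without it the count was 4 of 9. Limma's moderated F test over the 4 groups gave an adjusted *P* under 0.05 for 7 of the 10, all but *Prg4* (0.41), *Cux1* (0.17) and *Sulf1* (0.071), where 13.8% of all genes tested passed. Without *Gdf6* it was 6 of 9. Both of these counts without *Gdf6* still include *Barx1*, which passed the filter only with its *aadd* libraries. The rest of both counts are genes that the published account had named from these same libraries.

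*Gdf5* (mm10 chr2:155941025-155945364), whose product is needed for many limb joints, was at 17.4, 8.42 and 7.43 NRPKM in WT resting replicates 1, 2 and 3, at 13.5, 9.71 and 6.63 in WT proliferative, at 5.54, 0.667 and 0.870 in WT hypertrophic and at 34.6, 26.4 and 24.4 in *aadd*. Every *aadd* library was above the highest WT library, resting and proliferative libraries overlapped, and every hypertrophic library was below both. The means were 28.4 ± 5.39 NRPKM in *aadd* and 11.1 ± 5.49 in resting (SD, n = 3). *Gdf5* rose 2.72-fold in *aadd* against WT resting (95% interval 1.55 to 4.75, limma adjusted *P* = 0.25). Against WT proliferative cells the rise was 2.92-fold (adjusted *P* = 0.046). It fell by 2.58 on the log2 scale from proliferative to hypertrophic cells (adjusted *P* = 0.19), whereas its difference between proliferative and resting was -0.11 (95% interval -1.06 to 0.85).

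*Gdf6* (chr4:9844372-9862345), the close relative of *Gdf5* with a part in wrist and ankle joints, was a low-level gene in WT. It was at 1.05, 1.41 and 3.43 NRPKM in WT resting, at 0.108, 0.444 and 0.900 in proliferative, at 1.45, 0.262 and 1.47 in hypertrophic and at 7.97, 10.8 and 5.79 in *aadd*. The 3 *aadd* libraries stood above all others, with 58.5 to 84.1 reads each against 11 to 31 in resting and 1 to 6 in proliferative libraries. It rose 4.38-fold in *aadd* against WT resting (95% interval 2.12 to 9.04, limma adjusted *P* = 0.21). Its fall from resting to proliferative cells (log2 -1.92, adjusted *P* = 0.23) rested on these few reads, and it did not pass without resting replicate 3, without proliferative replicate 1 or with 1 added to each value in place of 0.1 (log2 -1.45, -1.31 and -0.95). The third ligand of this subfamily, *Gdf7*, did not reach the filter.

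*Osr1* (chr12:9574442-9581500) and *Osr2* (chr15:35296112-35303305) encode odd-skipped zinc finger transcription factors that are expressed in forming joints and act redundantly there. *Osr1* was at 9.63, 9.21 and 19.0 NRPKM in WT resting, at 4.75, 4.42 and 5.27 in proliferative, at 4.04, 1.97 and 0.668 in hypertrophic and at 50.7, 54.1 and 41.3 in *aadd*. The groups followed each other without any overlap, *aadd* highest and hypertrophic lowest. The means were 48.7 ± 6.63 NRPKM in *aadd* and 12.61 ± 5.53 in resting (SD, n = 3). It rose 4.04-fold in *aadd* against WT resting (95% interval 2.45 to 6.66, limma adjusted *P* = 0.099) and 9.90-fold against proliferative (adjusted *P* = 0.00079). From resting to proliferative cells it fell by 1.29 on the log2 scale (adjusted *P* = 0.14), and without resting replicate 3 the fall was 0.96, under the 2-fold criterion.

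*Osr2* had the same order of group means as *Osr1* and did not pass between *aadd* and resting. It was at 8.71, 5.02 and 16.5 NRPKM in WT resting, at 1.22, 1.75 and 2.66 in proliferative, at 2.87, 0.176 and 0.513 in hypertrophic and at 10.8, 17.3 and 10.5 in *aadd*. Resting and *aadd* libraries overlapped, and both lay above all proliferative and hypertrophic libraries. The log2 difference between *aadd* and resting was 0.48 (95% interval -0.55 to 1.51, limma adjusted *P* = 0.78), and *Osr2* passed the criteria only when resting replicate 3 was left out (0.91, adjusted *P* = 0.54). It fell by 2.26 from resting to proliferative cells (adjusted *P* = 0.11) and was 6.69-fold higher in *aadd* than in proliferative cells (adjusted *P* = 0.012). Whether *Osr1* and *Osr2* differed in their change between *aadd* and resting was not tested.

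*Barx1* (chr13:48663036-48666507) encodes a homeodomain factor of mesenchyme and of joint regions. It was at 3.32, 5.51 and 10.9 NRPKM in WT resting and at 16.0, 11.4 and 15.8 in *aadd*. In proliferative libraries it was at 1.12, 0 and 0.335, which is at most 4.11 reads, and in the 3 hypertrophic libraries at 0.227 to 0.315, which is about 1 read each. Resting and *aadd* cells thus both carried the gene, near the limit of detection in the other zones. *Barx1* rose 2.41-fold in *aadd* against WT resting (95% interval 1.22 to 4.75, limma adjusted *P* = 0.38), and the call was lost without *aadd* replicate 1 or 3 (log2 1.18 and 1.19). It was lower in hypertrophic than in resting cells with an adjusted *P* of 0.0062. The size of that difference follows the value added, with a log2 difference of -4.04 at 0.1 and -2.46 at 1, and the fall from resting to proliferative cells moved likewise from -3.98 to -2.29.

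*Erg* (chr16:95360204-95586593) encodes an ETS factor that marks articular chondrocytes and is also made by endothelial cells. It was at 39.9, 28.5 and 37.7 NRPKM in WT resting, at 24.1, 8.66 and 14.6 in proliferative, at 28.6, 18.7 and 22.1 in hypertrophic and at 41.3, 33.8 and 41.8 in *aadd*. The resting and *aadd* ranges overlapped, with a log2 difference of 0.15 (95% interval -0.31 to 0.61), and both lay above every proliferative library. From resting to proliferative cells *Erg* fell by 1.26 (limma adjusted *P* = 0.20), and without proliferative replicate 2 the fall was 0.89, short of the 2-fold criterion. The sum of 10 endothelial markers was 13.2 to 31.6 NRPKM in resting and 10.1 to 26.3 in proliferative libraries. It was 23.5 to 301 in hypertrophic and 18.4 to 58.5 in *aadd* libraries. The part of endothelial RNA in the *Erg* level was not tested. *Cux1* (chr5:136248135-136567431), a homeodomain factor expressed in joint interzones, stayed within a narrow range. It was at 21.0 to 24.2 NRPKM in resting, 15.2 to 24.1 in proliferative, 26.9 to 29.3 in hypertrophic and 22.3 to 25.8 in *aadd* libraries, and it passed no comparison. For *aadd* against resting the interval of its log2 difference was -0.26 to 0.48.

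*Dcx* (chrX:143855842-143933219) encodes doublecortin, a microtubule-binding protein best known from migrating neurons and also made by articular chondrocytes. It was at 7.05, 5.01 and 8.88 NRPKM in WT resting, at 2.04, 1.21 and 2.35 in proliferative, at 2.45, 0.541 and 0.588 in hypertrophic and at 31.7, 20.2 and 29.7 in *aadd*. The lowest *aadd* library was above the highest resting one, and all resting libraries were above all proliferative and hypertrophic ones. The means were 27.2 ± 6.13 NRPKM in *aadd* and 6.98 ± 1.94 in resting (SD, n = 3). *Dcx* rose 3.89-fold in *aadd* against resting (95% interval 2.48 to 6.09, limma adjusted *P* = 0.089) and 14.1-fold against proliferative (adjusted *P* = 0.0020). It fell by 1.86 on the log2 scale from resting to proliferative cells (adjusted *P* = 0.081) and by 2.73 from resting to hypertrophic cells (adjusted *P* = 0.045). The sum of 8 neuronal markers was 9.11 to 17.7 NRPKM in *aadd* and 6.98 to 10.8 in resting. The mean was higher in *aadd* than in resting for 5 of the 8. In the *aadd* libraries *Gap43* was the highest of them, at 4.85 to 8.88 NRPKM against 1.73 to 5.27 in resting. *Tubb3* was at 0.203 to 0.792 against 0 to 0.227 and *Stmn2* at 0.0728 to 0.425 against 0 to 0.686. *Nefl* was at 0.718 to 2.06 against 0 to 0.846 and *Snap25* at 2.5 to 5.2 against 2.7 to 4.5. *Stmn2*, *Elavl3* and *Elavl4* had the lower means in *aadd*. The part of neuronal RNA in the *Dcx* level was not tested. *Dclk1*, the related doublecortin-like kinase, did not reach the filter.

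Promoters of *Dcx* and *Barx1*, which rose in *aadd*, and of *Erg*, which did not pass there, are shown because the mutated factors bind DNA. Each is the 250 bases before the start of the deposited row, 5′ to 3′ on the gene's strand, from RefSeq GRCm38.p6 (the assembly called mm10). Capitals mark TTTAT or TTTAC, the core letters bound by posterior Hox proteins, or their reverse complements ATAAA and GTAAA. RefSeq promoters were matched for 4 of the 10 genes, and that of *Cux1* starts elsewhere than its deposited row. The *Dcx* promoter lies at chrX:143933220-143933469, that of *Barx1* at chr13:48662786-48663035 and that of *Erg* at chr16:95586594-95586843.
Dcx: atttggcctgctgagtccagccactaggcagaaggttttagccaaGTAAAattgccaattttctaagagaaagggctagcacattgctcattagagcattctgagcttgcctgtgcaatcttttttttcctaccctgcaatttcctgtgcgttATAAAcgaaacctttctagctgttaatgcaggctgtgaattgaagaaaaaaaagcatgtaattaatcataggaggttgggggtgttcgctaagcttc
Barx1: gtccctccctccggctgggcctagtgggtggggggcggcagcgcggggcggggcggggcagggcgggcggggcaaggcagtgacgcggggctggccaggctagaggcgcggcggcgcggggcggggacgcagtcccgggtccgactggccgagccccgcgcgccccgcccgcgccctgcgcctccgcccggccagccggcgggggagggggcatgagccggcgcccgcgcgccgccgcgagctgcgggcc
Erg: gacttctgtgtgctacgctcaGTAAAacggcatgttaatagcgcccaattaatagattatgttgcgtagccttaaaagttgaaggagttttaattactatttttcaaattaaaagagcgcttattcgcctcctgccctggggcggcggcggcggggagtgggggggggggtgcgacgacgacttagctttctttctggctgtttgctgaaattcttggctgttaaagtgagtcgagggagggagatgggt
*Dcx* held 2 matches, *Erg* 1 and *Barx1* 0. RefSeq lists further starts for both genes with matches, and the same window held 1 match at the other *Dcx* start and 4 and 0 at the other *Erg* starts. The *Dcx* windows overlap, and the match at the other *Dcx* start is the ATAAA already marked above. Of all 32851 promoters of this length, 51.2% held at least 1 match to either core, with a median of 1. GC content was 41.6% for *Dcx*, 48.8% for *Erg* and 85.6% for *Barx1*.

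*Sulf1* (chr1:12692430-12860372) encodes an extracellular enzyme that removes sulfate groups from heparan sulfate and so alters how growth factors, BMPs among them, are held at the cell surface. It was at 21.3, 12.9 and 28.9 NRPKM in WT resting, at 9.84, 4.11 and 6.86 in proliferative, at 6.61, 65.1 and 87.3 in hypertrophic and at 67.0, 57.1 and 60.2 in *aadd*. The *aadd* libraries were all above the resting ones, and these above the proliferative ones, while the hypertrophic group was split. *Sulf1* rose 3.06-fold in *aadd* against resting (95% interval 1.88 to 4.97, limma adjusted *P* = 0.18) and 9.26-fold against proliferative (adjusted *P* = 0.0056), and it fell by 1.60 on the log2 scale from resting to proliferative cells (adjusted *P* = 0.16). With all 12 libraries in a single fit, whose spread includes the split hypertrophic group, neither its difference from resting in *aadd* nor that in proliferative cells passed (limma adjusted *P* = 0.73 and 0.36), and *Barx1* no longer passed in *aadd* (adjusted *P* = 0.81). Its partner *Sulf2*, at 124 to 156 NRPKM in resting and 156 to 177 in *aadd*, did not pass between these groups.

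*Prg4* (chr1:150449412-150466165), the gene for lubricin, was the least even of the 10. It was at 1.51, 7.36 and 34.4 NRPKM in WT resting, at 2.03, 1.12 and 7.61 in proliferative, at 2.36, 1.94 and 1.30 in hypertrophic and at 3.38, 2.92 and 1.55 in *aadd*. All 3 *aadd* libraries were within the range of the resting ones, and resting replicate 3 alone held 376 of the reads, against 19.1 in resting replicate 1. The log2 difference between *aadd* and resting was -1.53 (95% interval -3.92 to 0.87, limma adjusted *P* = 0.70). Without resting replicate 1 it was -2.63 and passed the unadjusted criteria (adjusted *P* = 0.28). The row overlaps *Tpr*, which was at 48.7 to 78.0 NRPKM, and the use of strand is not given in the sources used here, so reads of the 2 genes cannot be told apart where they overlap.

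**Figure D2:**
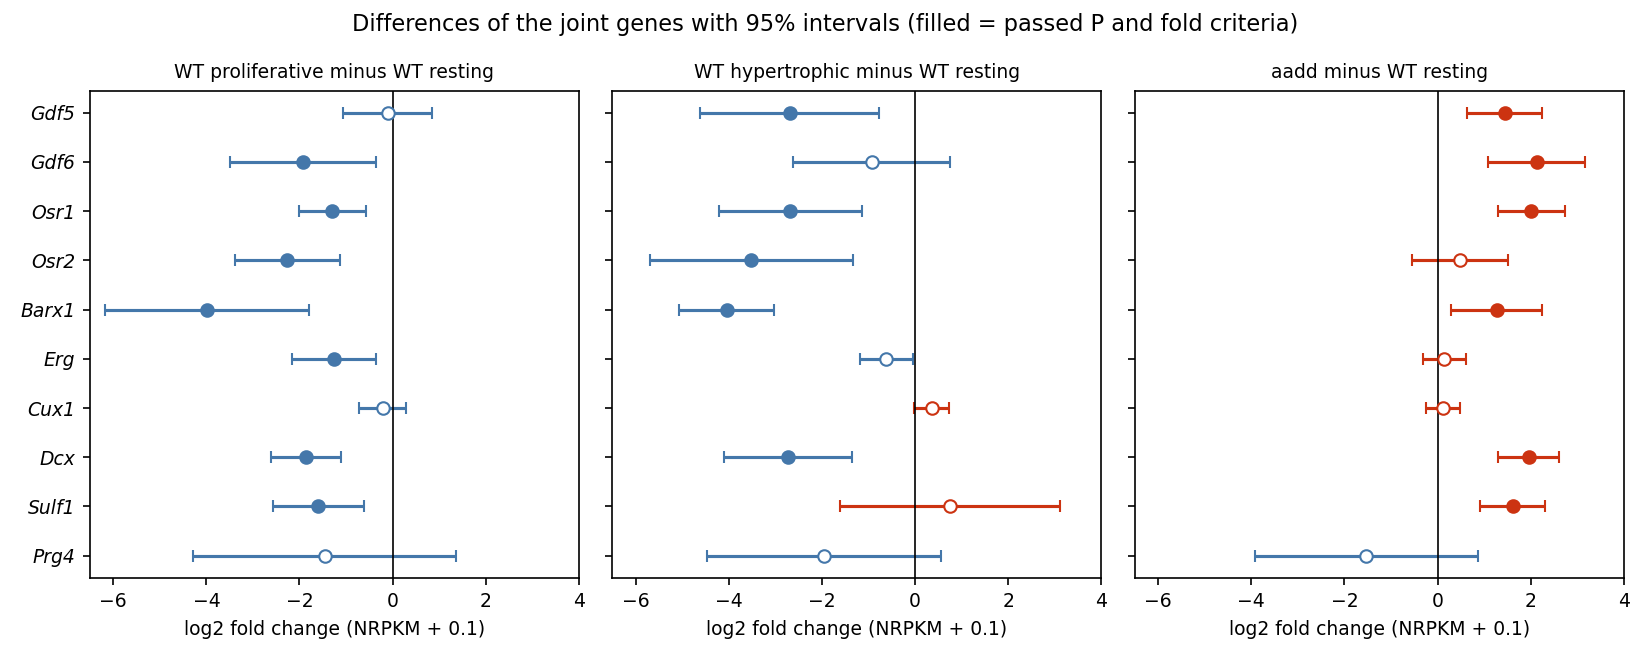
Log2 differences of the 10 joint genes from WT resting in proliferative cells, hypertrophic cells and *aadd*, with 95% intervals from limma; filled points passed the *P* and fold criteria. The 3 panels share the same resting libraries. Filled points lie to the left for 7 genes in proliferative cells and 5 in hypertrophic cells, and to the right for 6 genes in *aadd*.

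In hypertrophic cells 5 of the 10, *Gdf5*, *Osr1*, *Osr2*, *Dcx* and *Barx1*, were lower than in resting cells and none was higher, where 7.2% of all genes tested were lower and 5.84% higher. *Dcx* and *Barx1* had an adjusted *P* under 0.05, as did 6.36% of all genes. Without hypertrophic replicate 1, the log2 difference of *Sulf1* from resting cells was 1.91 (limma adjusted *P* = 0.020). The share of all genes that passed in that fit is not given here. From proliferative to hypertrophic cells *Gdf5* alone passed, and it was lower (4.34% of all genes were lower and 5.32% higher). In limma 0 of 10936 genes had an adjusted *P* under 0.05 there, 0% of those tested, while 2115 had an unadjusted *P* under 0.05. The hypertrophic libraries differed among themselves. Replicate 1 had *Mmp13*, a collagenase gene of late hypertrophic cells, at 3.05 NRPKM against 735 and 661 in replicates 2 and 3, *Spp1* at 24.1 against 1083 and 979, and the endothelial gene *Cdh5* at 7.30 against 96.5 and 72.5. *Ihh*, made by prehypertrophic cells, was at 56.3 in replicate 1 and at 9.54 and 15.3 in the others.

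The joint genes split the same libraries. *Gdf5*, *Osr1*, *Osr2* and *Dcx* were each higher in hypertrophic replicate 1 than in replicates 2 and 3, and *Sulf1* was about the level of proliferative cells in replicate 1 alone. Without replicate 1, 5 members passed between hypertrophic and proliferative cells in place of 1. *Gdf5* (log2 -3.48), *Osr2* (-2.20), *Osr1* (-1.96) and *Dcx* (-1.52) were lower and *Sulf1* was higher (3.51), all with a limma adjusted *P* under 0.05 (0.0070 to 0.039). In that fit 8.54% of all genes tested were lower, 9.38% were higher and 17% had an adjusted *P* under 0.05. That fit has 2 hypertrophic libraries, both with endothelial marker sums of 220 and 301 NRPKM, against 10.1 to 31.6 in WT resting and proliferative libraries. The part of endothelial RNA in the *Sulf1* level was not tested.

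**Figure D3:**
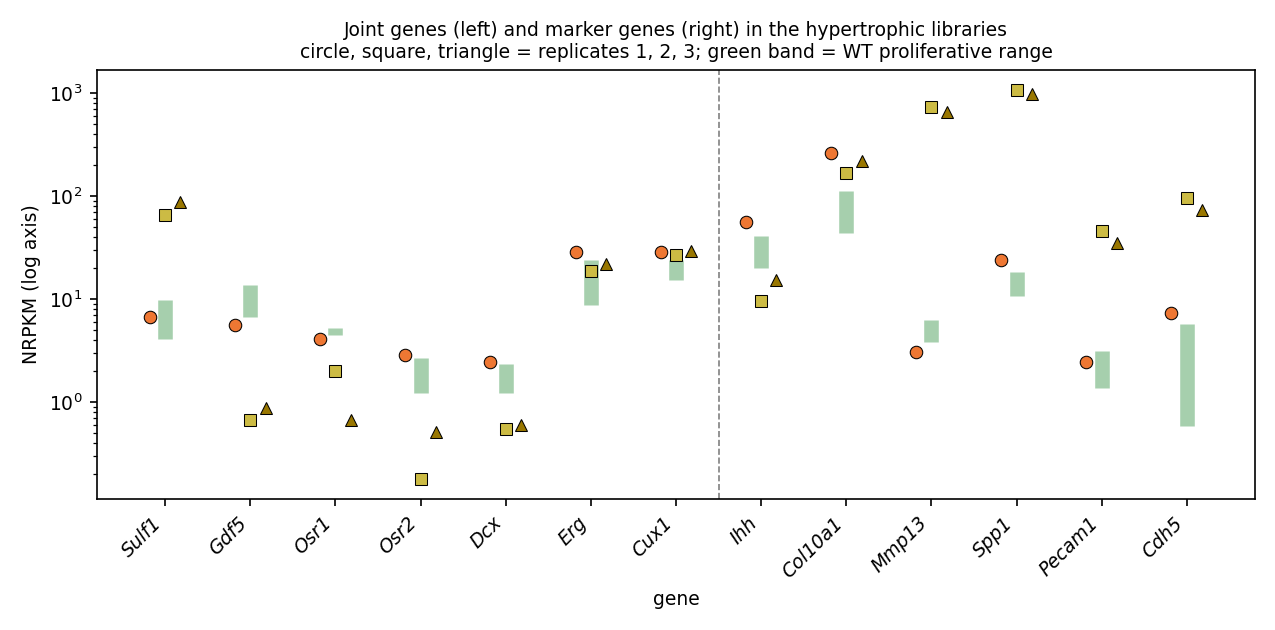
NRPKM (log axis) of 7 joint genes and 6 marker genes in the 3 hypertrophic libraries, with the range of the 3 proliferative libraries as a green band. Replicate 1 lies near the band for *Sulf1*, *Mmp13*, *Spp1* and *Cdh5*, where replicates 2 and 3 lie far above it, and above replicates 2 and 3 for *Gdf5*, *Osr1*, *Osr2* and *Dcx*.

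Set against WT proliferative cells, with the same *aadd* libraries as above, 8 of the 10 rose in *aadd* and none fell, where 9.82% of all genes tested rose and 6.02% fell. An adjusted *P* under 0.05 was reached by 7 of the 8 and by 3% of all genes. Without *Gdf6*, 7 of 9 rose and 6 had an adjusted *P* under 0.05. *Barx1*, which passed the filter only with its *aadd* libraries, is still in both counts. The rest of both are genes that the published account had named from these same libraries. *Cux1* and *Prg4* did not pass, and *Erg* rose 2.66-fold with an adjusted *P* of 0.096.

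The other genes of the GDF pathway were read from a list of receptors, transducers and antagonists. Among 10 tested genes for BMP receptors, SMAD transducers and antagonists, only *Bmpr1b* rose and *Smad9* fell (limma adjusted *P* = 0.43) in *aadd* against resting, where 3.78% of all genes rose and 2.78% fell. *Bmpr1b*, the receptor for GDF5, was at 7.77, 5.28 and 10.2 NRPKM in resting and at 28.5, 15.9 and 38.8 in *aadd*, a 3.44-fold rise without overlap (95% interval 1.85 to 6.42, limma adjusted *P* = 0.21). That rise, too, had been named in the published account from these same libraries and is no independent evidence. *Bmpr1a*, *Bmpr2*, *Acvr2a*, *Smad1*, *Smad4*, *Smad5*, *Nog* and *Grem1* did not pass. None of the 10 passed between proliferative and resting cells, where 2.56% of all genes were higher and 2.97% lower. The median log2 difference of these 10 in *aadd* was -0.01.

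Of 10 tested further interzone genes, *Sfrp2*, *Jun* and *Enpp2* (1.83-fold, limma adjusted *P* = 0.35) rose in *aadd* against resting and none fell, beside 3.78% and 2.78% of all genes. *Sfrp2*, a secreted Wnt modulator, was at 50.1, 63.2 and 35.3 NRPKM in resting, 14.1, 12 and 9.55 in proliferative and 89.1, 83.3 and 99.9 in *aadd*, a decline in proliferative cells (adjusted *P* = 0.038) and a 1.88-fold rise in *aadd* (adjusted *P* = 0.31). *Jun*, which acts upstream of Wnt ligands in joint formation, rose 2.24-fold (adjusted *P* = 0.076). *Wnt4*, an interzone ligand that is also made by maturing chondrocytes, went the other way between zones, 2.29-fold higher in proliferative than in resting cells (adjusted *P* = 0.0503). Of 7 tested articular and superficial zone genes, *Dkk3* rose in *aadd* (2.11-fold, limma adjusted *P* = 0.25), beside 3.78% of all genes. The published account had already named the rise of *Dkk3* from these same libraries, so it is no independent evidence. *Pthlh* and *Creb5* fell from resting to proliferative cells (adjusted *P* = 0.034 and 0.18), beside 2.97% of all genes. *Pthlh*, which encodes the PTHrP made by periarticular cells, was at 16.2 to 18.7 NRPKM in resting, 2.45 to 5.04 in proliferative and 9.44 to 32.9 in *aadd*.

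**Figure D4:**
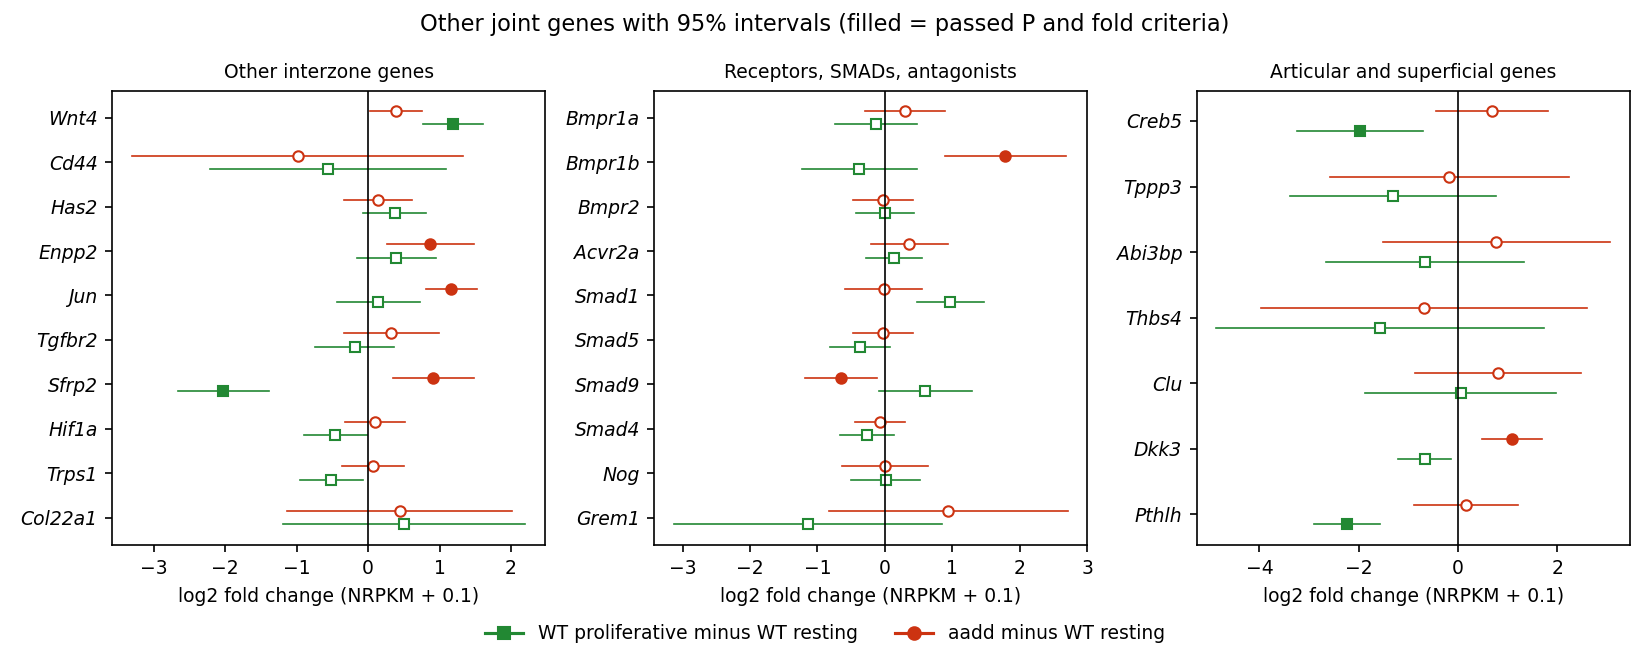
Log2 differences from WT resting with 95% intervals for tested genes of 3 further groups, in proliferative cells (green squares) and *aadd* (red circles); filled symbols passed the criteria. *Bmpr1b*, *Enpp2*, *Jun*, *Sfrp2* and *Dkk3* lie filled to the right in *aadd* and *Smad9* to the left, while *Sfrp2*, *Creb5* and *Pthlh* lie filled to the left in proliferative cells and *Wnt4* to the right.

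Markers of neighbouring tissues were also read in *aadd* and resting libraries. The sum of 8 tendon and ligament genes was 518 to 844 NRPKM in *aadd* and 327 to 640 in resting, and that of 8 perichondrial and fibroblast genes was 435 to 983 and 499 to 819. Of the 8 tendon and ligament genes, 6 had a higher mean in *aadd* than in resting, while *Kera* and *Tnc* had a lower one. Only *Mkx*, a tendon transcription factor, was without overlap, at 25.5 to 33.6 NRPKM in *aadd* and 12.1 to 17.4 in resting. *Scx*, which defines tendon progenitors, was at 3.20 to 8.92 and 2.72 to 5.77. Endothelial genes summed to 18.4 to 58.5 NRPKM in *aadd*, highest in replicate 2, and to 13.2 to 31.6 in resting. Skeletal muscle genes, 10 in all, summed to 24.8 to 67.4 NRPKM in *aadd* and 13.9 to 23.1 in resting, without overlap. The mean was higher in *aadd* than in resting for 10 of 10 endothelial and 9 of 10 muscle genes. It was higher for 4 of the 8 perichondrial and fibroblast genes. The part of these cells in the joint gene levels was not tested.

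Over the 12 libraries, the genes whose log2 profiles were most like those of the members are given as a description, since the points share libraries and depth. For *Dcx* they were *Runx1t1* (Pearson's r = 0.981) and *Hoxd11* (0.977), for *Osr1* *Syt11* (0.989) and again *Runx1t1* (0.973), for *Gdf5* *5930403L14Rik* (0.984) and *Prdm16* (0.963) and for *Gdf6* *Ptn* and *Ncoa1* (both 0.911). *Hoxd11* is among the genes frameshifted in *aadd*, and its RNA was at 25.1 to 35.4 NRPKM there against 4.34 to 7.31 in resting. *Osr2* was closest to *Sulf2* (0.960), *Barx1* to *Setbp1* (0.965), *Sulf1* to *Apobec3* (0.975), *Cux1* to *Ubxn4* (0.958), *Erg* to *Ctps2* (0.954) and *Prg4*, least closely, to *Rras* (0.872).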

How the data were processed

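The authors sequenced RNA amplified from LCM samples, removed multiply aligned and duplicate reads, aligned to mm10 (TopHat, per the submitters' processing notes) and computed expression in GeneSpring. The deposited values are RPKM normalized further between libraries (NRPKM), linear, before the expression filter. The normalization is not given in the sources used here.

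Reads were not analysed here. Depth was read from the most frequent value of 1752 short sensory receptor and keratin-associated gene rows, taken as 1 read, and reads behind a gene from exon lengths (GENCODE M21). These cover counting error only.

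Genes reaching 5 NRPKM in 3 or more of the 12 libraries were tested as log2(NRPKM + 0.1) in limma 3.58.1 (R 4.3.3), each comparison on the 6 libraries of its groups without covariates, and with a moderated F test over 4 groups. Tables and plots used Python 3.11.15. The procedure was tested on simulated data. P-values measure the spread between samples.

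The members, the further gene lists, the criteria and the genes named (all members, list genes that passed, and the 2 most alike genes by Pearson's r) were chosen with earlier results of these data known. Deviations of same-numbered resting and proliferative libraries correlated at r = 0.281, 0.179 and 0.198, each over 0.1, which was taken as a sign of pairing. The values printed come from the fit without a replicate block, and the block is an alternative. Alternatives were a pseudocount of 1, no filter, a filter over the libraries compared, median of ratios rescaling, quantile normalization, all libraries in a single fit, a replicate block, sex as a factor and each library left out. Counts without *Gdf6* were added after seeing the data.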

Additional observations from a re-analysis of the deposited data

How the results depend on the processing

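Of 672 member differences recomputed under the alternatives, 635 kept their direction and side of the criteria, 12 no longer passed, 16 newly passed and 9 changed sign. None of the 9 belonged to a difference that had passed. The changes of sign were *Gdf5* between proliferative and resting cells (0.00198 with quantile normalization, and -0.35 to 0.27 with a library left out), *Barx1* between hypertrophic and proliferative cells (0.0561 with quantile normalization, and -1.01 to 0.79 with a library left out) and *Prg4* between *aadd* and proliferative cells (0.0603 with sex as a factor, and -0.65 to 0.26 with a library left out). The cause was not tested. The number of all genes that passed also moved with the setting, so the member counts below have no fixed background. Between proliferative and resting cells it was 605 of 10936 in the main fit and 487 with a pseudocount of 1. With no filter it was 1632 of 22491. Between hypertrophic and proliferative cells, 2 members passed with a pseudocount of 1, with the filter over the 6 libraries compared and with quantile normalization, 3 passed with all 12 libraries in a single fit, and 1 to 5 with a library left out (5 without hypertrophic replicate 1, 2 without hypertrophic replicate 2). *Gdf5* no longer passed there without proliferative replicate 1 (-2.33), where *Erg* did (1.01), and *Gdf6* passed without hypertrophic replicate 2 (1.69). Without resting replicate 1, *Gdf5* no longer passed between hypertrophic and resting (-2.31), and *Prg4* passed there (-3.07) and between proliferative and resting (-2.56). The F test gave 4 to 8 members with a library left out (4 without hypertrophic replicate 3). Between *aadd* and resting, 4 in place of 6 passed with all 12 libraries in a single fit. The further gene lists were also counted together by limma adjusted *P*, the receptors, SMADs and antagonists included. Between *aadd* and resting 0 in place of 6 passed, beside 0.119% of all genes. The 6 were *Bmpr1b*, *Enpp2*, *Jun*, *Sfrp2* and *Dkk3*, higher, and *Smad9*, lower. Between proliferative and resting 2 in place of 4 passed, beside 0.622% of all genes. Of the 4, *Wnt4* was higher and *Sfrp2*, *Creb5* and *Pthlh* were lower.

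With the replicate number as a block, 7 members passed between proliferative and resting, 1 between hypertrophic and proliferative, 5 between hypertrophic and resting, 6 between *aadd* and resting, 8 between *aadd* and proliferative and 7 in the F test, as without it. The share of all genes that passed with the block, or with sex as a factor, is not given here. In the comparisons other than proliferative against resting, the deviations of same-numbered libraries correlated at -0.10 to 0.28, not all over 0.1. Members with an adjusted *P* under 0.05 went from 7 to 5 between *aadd* and proliferative and from 2 to 1 between hypertrophic and resting under the block. *Gdf6* could not be fitted when an *aadd* library was left out, since it then missed the filter. *Xist* and Y-linked genes marked replicate 2 of each WT compartment and *aadd* replicates 1 and 2 as male, and with sex as a factor the counts of members that passed were again 7, 1, 5, 6, 8 and 7. Depth limits *Barx1* in proliferative and hypertrophic cells (0 to 4.11 reads a library) and *Gdf6* in proliferative cells (1 to 6).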
